A study of Homo sapiens with 191 samples.

Results

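Of the 50000 accessible regions in the list, 1238 (2.48%, 95% interval 2.34 to 2.62) lay in an exon of a protein-coding gene and more than 1000 bp from every transcription start site (TSS) of a protein-coding gene. They were chosen by position alone: the centre of the region had to fall in an annotated exon, and no score was used. Of the remaining regions, 15296 lay in introns and 17101 between genes at the same distance limit, and 16365 lay within 1000 bp of a protein-coding TSS and are called promoter regions here. The assay was ATAC-seq, in which a transposase cuts open DNA, on single cells of GM12878, a human B lymphoblastoid line immortalised by Epstein-Barr virus. After fixation, permeabilisation and transposition, cells with no antibody stain were sorted singly into 2 plates, with 96 libraries from plate 1 and 95 from plate 2, and every library belonged to the same group, so there was no treatment, second line or control. The list was called on the pooled cells as windows of 501 bp, each with a score, the −log10 of its q-value, and it holds no value per cell and no replicate. The list gives no reads, so depth cannot be read from it, and every interval given here covers counting error of regions only. As a check of the line, a promoter region stood at 10 of 12 B cell marker genes, against 1 of 6 T cell, 2 of 6 myeloid and 0 of 5 erythroid markers.

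Open chromatin marks DNA where nucleosomes have given way to transcription factors or to the transcription machinery. Promoters at gene starts are the best known class, and most enhancers lie in introns or between genes. An exon also has its own task, since coding exons carry codons and untranslated regions (UTRs) govern the stability and translation of the mRNA. A regulatory element inside an exon therefore shares its bases with the transcript, and it can serve the host gene, an alternative or antisense start, or a neighbouring gene.

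The sites below are shown because their motifs were among those that differed most in frequency between exonic and intronic regions. Each is the reference sequence (hg19) of 30 bases on the strand of the motif, with the motif in capitals, and all lie in the exon itself.
DMRT1 exon 3, CTCF, chr9:893939-893968, plus strand: ctgctgtcaCCAGCAGAGGGCatgtggaga
CHPF exon 2, CTCF, chr2:220406661-220406690, plus strand: cgtgctgctCCAGCAGGTGGCgcagcgcca
Gamma protocadherin last exon, CTCF, chr5:140890678-140890707, plus strand: ggcaaggccCCAGCAGGTGGCaatggcaac
PELO exon 2, NRF1, chr5:52095906-52095935, plus strand: gacgggggctGCGCATGCGccttcatttcg
SEC14L2 exon 12, NRF1, chr22:30819934-30819963, plus strand: aatagataggGCGCATGCGcagaaatcctc
LGI4 exon 9, NRF1, chr19:35615569-35615598, minus strand: ctgctgcttgtGCGCATGCGtgcggccgcc
ST3GAL2 exon 7, ETS, chr16:70415353-70415382, plus strand: tggacacagcgCCGGAAGTtttccttgagt
FNBP1 exon 17, ETS, chr9:132650833-132650862, plus strand: cgttgcagggaCCGGAAGTccatggctctg
PELO exon 2, SP/KLF, chr5:52096118-52096147, minus strand: aggccaggaagGGGGCGGGgcccggtttct
SEC14L2 exon 12, YY1, chr22:30820033-30820062, minus strand: tgccctgatcaAAGATGGCGgaagacaacc
SOX9 exon 2, YY1, chr17:70119021-70119050, minus strand: gcagcgccttgAAGATGGCGttgggggaga
Such matches are runs of letters and were not tested as bound sites.

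Most exonic regions lay at the 3′ side of their genes, as did most exonic sequence beyond 1000 bp from a TSS. Of 73.2 Mb of such exon, 38.3 Mb was 3′ UTR and 23.5 Mb coding sequence. In canonical transcripts, last exons made up 35.9 Mb of it and inner exons 17.0 Mb. The density in 3′ UTRs, 14.4 regions per Mb, was below the 16.9 of all exons. By class, 553 (44.7%, 41.9 to 47.5) were in a 3′ UTR, 486 (39.3%, 36.5 to 42.0) in coding sequence, 13.5% (11.6 to 15.5) in exons of transcripts without a coding sequence, and 32 (2.58%, 1.77 to 3.63) in a 5′ UTR. By place in the transcript, 739 (59.7%, 56.9 to 62.4) were in a last exon, 403 (32.6%, 29.9 to 35.2) in an inner exon, 48 (3.88%, 2.87 to 5.11) in a first exon and 48 in the only exon of a transcript. Last exons held 515 of the 553 regions in 3′ UTRs, and inner exons held 328 of the 486 coding ones. The median region sat at 87.7% of the way along its transcript (interquartile range 64.5 to 97.4).

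These classes depend on which transcript is read. Coding sequence was given priority over the 5′ UTR, then the 3′ UTR, then non-coding transcripts, and 297 regions (24.0%) could have taken more than 1 class. The exon belonged to the canonical transcript of its gene for 924 regions (74.6%) and to transcripts that are neither canonical, principal nor protein-coding for 199 (16.1%). A further 31 regions lay in exons of at least 2 protein-coding genes.

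The geometry of the classes differed. Coding regions sat in exons with a median length of 297 bp, and for 276 of 486 (56.8%) the exon was shorter than the window. A median of 59.9% of a coding region's window was exonic, and the whole window was coding sequence in 83 (17.1%). Regions in 3′ UTRs sat in exons with a median length of 3468.0 bp, and their windows were entirely exonic at the median. Their centres lay a median of 1353.0 bp before the transcript's 3′ end, and 224 of 553 (40.5%) lay within 1000 bp of it. In the coding class the measured accessibility thus covers flanking intron as well as exon.

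Exonic, intronic and intergenic regions had the same median score. It was 25.7 in exons (interquartile range 18.7 to 45.8), against 25.7 in introns (18.7 to 45.8), 25.7 between genes (18.7 to 47.4) and 64.3 in promoter regions (28.6 to 188.7). In the whole list, 25.1% of regions reached the upper quartile score of 74.9. In exons 13.5% did (11.6 to 15.5), against 13.8% in introns, 15.6% between genes and 46.5% in promoter regions. The share was 13.8% in coding sequence, 12.7% in 3′ UTRs, 14.4% in non-coding transcripts and 18.8% (7.21 to 36.4) in the 32 regions of 5′ UTRs. At the other end, 90 exonic regions (7.27%) had the lowest score of the list, 16.0, against 8.16% of intronic regions.

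**Figure D1:**
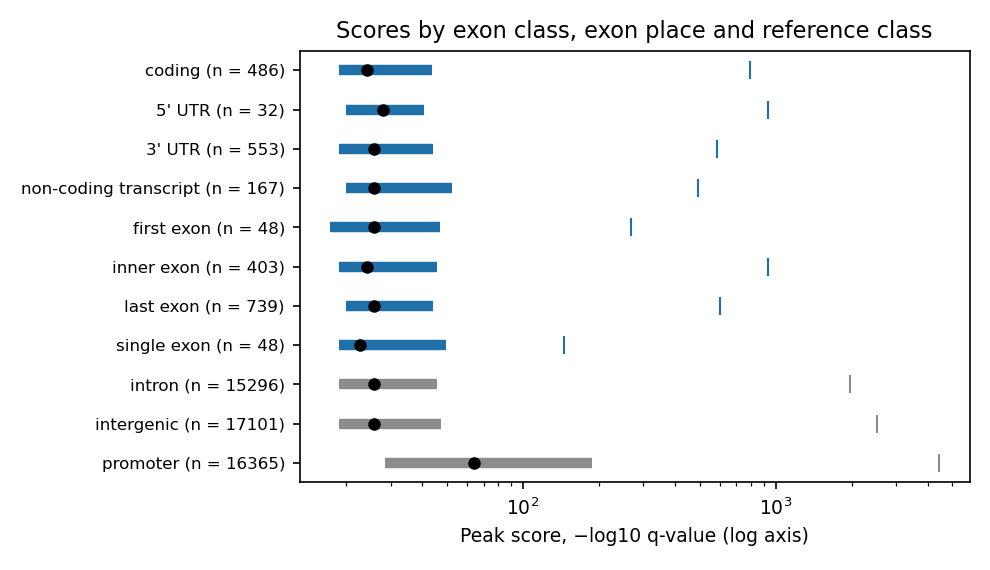
Peak score (−log10 q-value, log axis) by exon class and exon place (blue) and for introns, intergenic sequence and promoters (grey): points are medians, bars interquartile ranges and ticks the highest score. Exonic medians run between 22.8 and 27.9, beside 25.7 in introns and 64.3 in promoter regions.

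The 10 strongest exonic regions lay in 5′ UTRs, long coding exons, 3′ UTRs and an exon of a non-coding transcript. The highest score, 931, stood at chr5:52095658-52096158 in exon 2 of PELO, which encodes a factor that rescues stalled ribosomes. It ranked 715 in the whole list. Its centre lay 12121 bp from the nearest protein-coding TSS but 87 bp from the TSS of the lncRNA PELO-AS1, and its window had 37 CpG dinucleotides and 59.5% GC, with the NRF1 and SP/KLF sites printed above. MID1IP1, which encodes a regulator of lipid synthesis, showed the same layout at chrX:38662989-38663489, with a score of 447 in exon 2, close to the TSS of MID1IP1-AS1 and with 43 CpG. H2AZ1, the gene of the histone variant H2A.Z, had a score of 491 in an exon of a non-coding transcript, 776 bp from the TSS of the lncRNA H2AZ1-DT and 1024 bp from a protein-coding TSS. Among the 10 strongest exonic regions these 3 lay within 1000 bp of a TSS of another gene type.

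The other 7 of the 10 were more than 1000 bp from a TSS of any gene type. In coding sequence, the zinc finger gene ZFAT held a score of 791 in exon 6 (1278 bp from a protein-coding TSS), and ANK2, the gene of ankyrin-B, a score of 783 in exon 38, which is 6255 bp long. The nearest other region was 157750 bp from that of ANK2. MGARP, which encodes a mitochondrial protein, held 604 in its last exon, 13366 bp from a protein-coding TSS, and SHOX2, a homeobox gene, held 438 in its last exon with 45 CpG. In 3′ UTRs the highest scores were 589 at SDR42E2 of a dehydrogenase family, 562 at SLC25A26, the mitochondrial carrier of S-adenosylmethionine, 525 at the sialyltransferase gene ST3GAL2 and 513 at SYP, which encodes the synaptic vesicle protein synaptophysin. Of these, the regions at SDR42E2 and ST3GAL2 were rich in CpG (36 and 42), and that at SLC25A26 had 4. The remaining leading 5′ UTR regions were IQCD (score 320, exon 2) and BTG3 (121.7, exon 2), and the BTG3 region was 21 bp from the TSS of BTG3-AS1.

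In exons of non-coding transcripts, H2AZ1 was followed by the gene ENSG00000272980 with a score of 251, GYPC (glycophorin C of red cells) with 240 and MECOM, a zinc finger factor of blood stem cells, with 240. In first exons the highest scores were 269 at the Notch co-activator MAML2, 139.5 at the insulin receptor substrate IRS1, 137.5 at the zinc exporter SLC30A1 and 95.0 at the adenylyl cyclase gene ADCY2. In single exons they were 145.5 at FRY, 108.2 at PROB1, 106.3 at SOX12 and 100.6 at the immediate early gene IER5. The top scores in first and single exons were thus below those in inner and last exons, but they came from fewer regions (48 and 48, against 403 and 739). The share of regions in the upper quartile of the list was 16.7% in first, 12.5% in single, 14.9% in inner and 12.6% in last exons.

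Per base, exons held more regions than introns before any property of the sequence was taken into account. Beyond 1000 bp from a TSS there were 16.9 regions per Mb of exon (16.0 to 17.9), against 13.7 per Mb of intron (13.5 to 13.9) and 11.2 between genes (11.1 to 11.4), and the ratio of exons to introns was 1.23 (1.16 to 1.31). Within exons the density was 31.2 in 5′ UTRs (21.3 to 44.0), 20.7 in coding sequence (18.9 to 22.6), 16.1 in non-coding transcripts (13.8 to 18.8) and 14.4 in 3′ UTRs (13.3 to 15.7). The ratio to introns was 2.27 (1.55 to 3.21) for 5′ UTRs, 1.51 (1.37 to 1.65) for coding sequence and 1.05 (0.965 to 1.15) for 3′ UTRs.

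**Figure D2:**
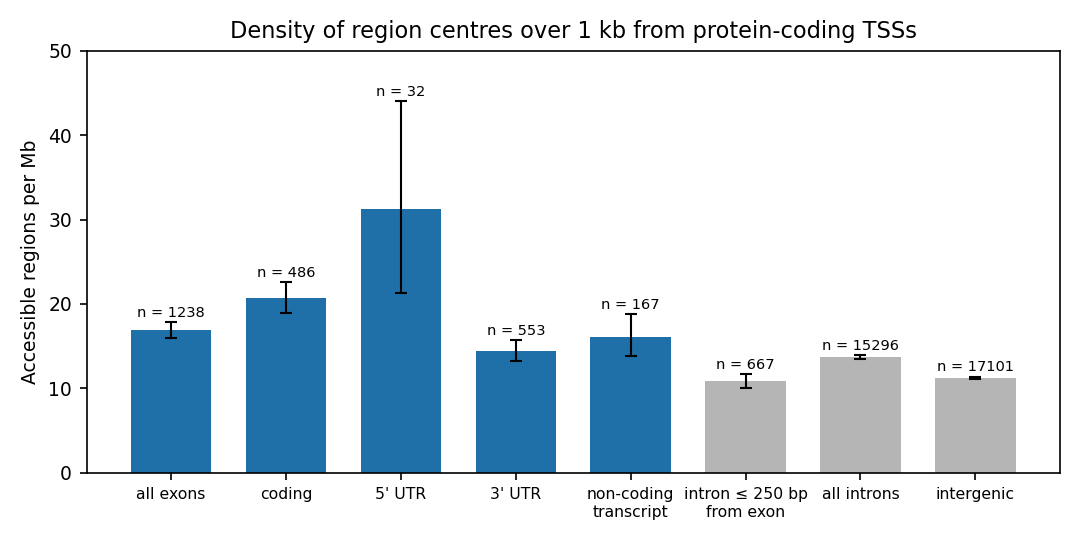
Accessible regions per Mb of sequence over 1 kb from protein-coding TSSs, in exons and their classes (blue) and in introns and intergenic sequence (grey), with exact 95% Poisson intervals and the number of regions. Coding sequence (20.7) and 5′ UTRs (31.2) lie above introns (13.7), and intron within 250 bp of an exon (10.9) lies below.

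Distance from a start moved with this ratio. Exonic regions lay a median of 4591.5 bp from a protein-coding TSS, and 24.0% of them lay at 1000 to 2000 bp, against 11.7% of intronic regions. Within bins of distance, exons held 26.6 regions per Mb at 1000 to 2000 bp (23.6 to 29.8) against 25.6 for introns (24.4 to 26.8), and 13.0 at 10000 to 50000 bp (11.6 to 14.6) against 12.7 (12.4 to 13.0). Beyond 50000 bp, where only 56 exonic regions lay, exons held 12.2 (9.20 to 15.8) against 9.12 (8.76 to 9.50), a ratio of 1.33 (1.01 to 1.74). Coding sequence alone held 32.7 against 25.6 in the nearest bin, 15.4 against 12.7 at 10000 to 50000 bp and 21.7 against 9.12 beyond, where the ratio was 2.38 (1.60 to 3.40). With intron density weighted to the exons' distances, the ratio was 1.05 (0.988 to 1.10) for all exons, 1.26 (1.15 to 1.37) for coding sequence, 1.68 (1.15 to 2.38) for 5′ UTRs and 0.941 (0.864 to 1.02) for 3′ UTRs.

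Weighting to GC content took the ratio below 1 for all exons and for coding sequence, but not for 5′ UTRs. Coding sequence over 1000 bp from a TSS had a mean window GC of 47.5%, against 40.9% in introns over 250 bp from an exon. Regions were scarce in AT-rich sequence of exons and of introns. At 40 to 45% GC, exons held 15.8 regions per Mb (13.7 to 18.1) against 14.3 in introns (13.9 to 14.8). At 60 to 65% GC they held 28.3 (23.4 to 33.9) against 42.1 (38.7 to 45.7), and coding sequence held 20.1 (14.8 to 26.7). In the most GC-rich sequence the order was the other way, with overlapping intervals: at 70 to 75% GC exons held 88.2 (61.8 to 122.1) against 75.5 in introns (56.0 to 99.5), and at 75 to 80% 83.7 (38.3 to 158.8) against 56.4 (30.1 to 96.5). With intron density weighted to the exons' GC content, the ratio was 0.901 (0.852 to 0.953) for all exons, 0.863 (0.788 to 0.943) for coding sequence, 0.911 (0.836 to 0.990) for 3′ UTRs and 1.56 (1.07 to 2.21) for 5′ UTRs. Weighted to distance and GC content together it was 0.844 (0.798 to 0.893) for all exons, 0.796 (0.727 to 0.870) for coding sequence and 1.37 (0.939 to 1.94) for 5′ UTRs. These weightings were added after the data were seen, and their intervals hold the weighted intron density fixed. The part that sequence preference of the transposase or of library amplification has in these values was not tested.

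**Figure D3:**
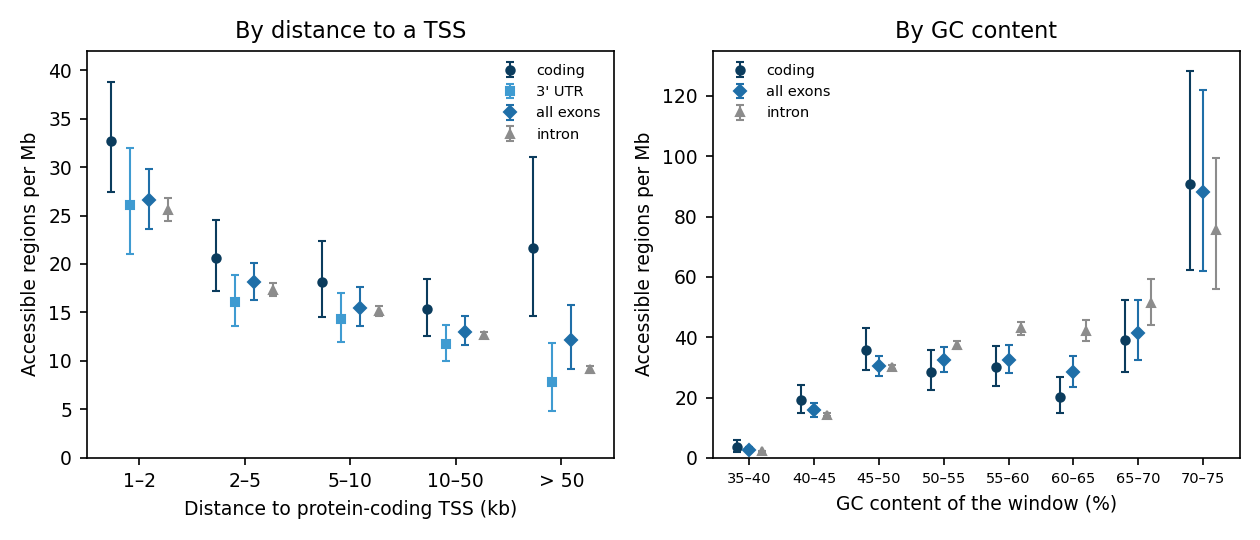
Accessible regions per Mb of coding sequence, 3′ UTR (left panel), all exons and introns, by distance to the nearest protein-coding TSS in kb (left) and by GC content of the 501 bp window (right), with exact 95% Poisson intervals. All exons lie beside introns at 1 to 50 kb from a TSS, below them at 60 to 65% GC (28.3 against 42.1) and have overlapping intervals with them at 70 to 75% GC (88.2 against 75.5).

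The introns next to exons had the fewest regions. Intron within 250 bp of an exon held 10.9 regions per Mb (10.0 to 11.7), that over 250 and up to 1000 bp away held 13.0 (12.4 to 13.6) and that beyond held 14.0 (13.8 to 14.3). The exons themselves, at 16.9, were above these flanks. Weighted to distance and GC content, the ratio to all introns was 0.591 (0.547 to 0.638) for the flanks, against 0.844 for exons. Median scores were 25.7 in exons and in all 3 intron classes.

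Exon place was read also from canonical transcripts alone, whose bases can be counted. The coding part of first exons beyond 1000 bp from a TSS held 105.9 regions per Mb (64.7 to 163.5, 20 regions), that of single exons 64.3 (38.1 to 101.6), that of last exons 21.6 (17.8 to 25.9) and that of inner exons 18.9 (16.9 to 21.2). With UTRs included, the density was 37.7 in single exons (26.3 to 52.5), 19.2 in inner exons (17.2 to 21.4) and 15.1 in last exons (13.9 to 16.4). First exons reach past 1000 bp only when they are long, and regions in first exons of any transcript lay a median of 1431.5 bp from a TSS, against 5030.0 bp for inner exons. The dense first exons and the distance limit thus lie close together.

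Exonic regions were richer in GC and CpG than intronic ones. The median was 50.9% GC and 9.00 CpG per window in exons, against 47.9% and 6.00 in introns and 62.1% and 36.0 in promoter regions. Coding regions had 53.3% and 11.0, and regions in single exons 56.6% and 18.5. As many CpG as the median promoter region were found in 9.29% of exonic regions (7.73 to 11.0), against 1.26% of intronic (1.09 to 1.45) and 4.44% of intergenic regions (4.14 to 4.76). Among coding regions the share was 17.7% (14.4 to 21.4), among 3′ UTR regions 3.44% (2.08 to 5.31) and among single exons 33.3% (20.4 to 48.4). These CpG-rich regions had a median score of 36.2 in exons, against 55.8 in introns. Of those in exons, 56 (48.7%) lay at 1000 to 2000 bp from a protein-coding TSS, and 27 (23.5%) within 1000 bp of a TSS of another gene type.

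A small share of exonic regions lay near starts of other gene types. Of all exonic regions, 8.72% (7.21 to 10.4) lay within 1000 bp of the TSS of a gene that is not protein-coding, against 3.92% of intronic (3.62 to 4.24) and 12.2% of intergenic regions (11.7 to 12.7). The nearest such gene was a lncRNA for 80 of these and a miRNA for 9. It lay on the strand opposite to the host transcript for 81 (75.0%, 65.7 to 82.8). By class the share was 10.1% in 3′ UTRs, 8.02% in coding sequence and 3.59% in non-coding transcripts, and 7 of 32 in 5′ UTRs. The median score of these regions was 32.4 (18.7 to 74.5), against 25.7 (18.7 to 42.5) in the other 1130. APOA1, the gene of the main protein of high-density lipoprotein, is an example outside the B lineage. Its region at chr11:116706475-116706975 lay in coding exon 4 with a score of 161.7, close to the TSS of APOA1-AS and 1577 bp from a protein-coding TSS, and the APOA1 promoter itself held no region.

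Exonic regions were spread thinly over genes. Of 20090 protein-coding genes, 1105 (5.50%) held at least 1, and of these 938 held 1, 13 held 3, 9 held 4, 2 held 5 and the rest held 2. A promoter region was present at 781 of the 1105 (70.7%, 67.9 to 73.4), against 57.2% of all protein-coding genes. Counted by region, 73.0% of exonic regions (70.5 to 75.5) lay in a gene with a promoter region, against 80.7% of intronic regions (80.1 to 81.3). The share was 66.3% for coding, 75.6% for 3′ UTR and 85.0% for non-coding transcript regions. The 334 regions in genes without a promoter region had a median score of 24.3, against 25.7 in the other 904, and a median of 11.0 CpG, against 8.00.

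TTN and CD74 held 5 exonic regions each. TTN encodes titin of the muscle sarcomere, had no promoter region here, and has 115.8 kb of exon beyond 1000 bp from a TSS. Its regions were all coding, with scores of 33.1 in exon 362, 423 and 30.1 in exon 358, 16.0 in exon 349 and 40.9 in exon 20. A single region in exon 358, which is 5609 bp long, was thus well above the others. The centre of that region lay 57 bp from the TSS of the lncRNA TTN-AS1. CD74 encodes the invariant chain that guides MHC class II molecules, and has 4.18 kb of such exon. Its regions scored 28.6 in the 3′ UTR and 17.3, 47.4, 85.8 and 52.4 in exons of non-coding transcripts.

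Of the genes with 4 regions, METTL8, HECW2, PCDHGA10 and CRYBG1 come first by position. METTL8, which encodes a tRNA methyltransferase of mitochondria, had scores of 54.1, 18.7, 33.1 and 34.7, all in a last exon of 8617 bp. HECW2, a ubiquitin ligase gene, had 18.7 in its 3′ UTR and 64.3, 18.7 and 20.0 in non-coding transcripts. The regions of CRYBG1, a crystallin-domain gene with no promoter region, were all coding, with 108.2 and 18.7 in exon 3 and 174.1 and 102.5 in exon 4. The exon 3 regions held 51 and 35 CpG and those in exon 4 held 7 and 13. PCDHGA10, a gamma protocadherin gene, had 27.2 and 16.0 in its own first exon and 123.7 and 27.2 in the last exon, which 22 gamma protocadherin genes share.

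Exonic regions were counted in gene lists, which are described by their counts beside the 5.50% of all genes. Among genes of B cell identity 7 of 25 held an exonic region (28.0%, 12.1 to 49.4). Their exons held 73.6 regions per Mb (31.8 to 145.1), against 16.5 over all genes. Housekeeping genes held 66.3 (13.7 to 193.6) and cell cycle genes 48.3 (9.96 to 141.2), from 3 regions each. These lists outside the B lineage were also above all genes in density, but their intervals include 16.5. The strongest of the B cell identity list were CD72, a receptor that restrains B cell activation (score 45.8, coding exon 3), the kinase gene LYN (40.9, 3′ UTR), CD22, another inhibitory receptor (30.1, 3′ UTR), and the kinase gene BLK (30.1, non-coding transcript). CD22 had no promoter region, and its exonic region lay 1046 bp from a protein-coding TSS. For B cell receptor signalling the count was 4 of 24 (16.7%, 4.74 to 37.4), among them NFATC1 (24.3), PLCG2 (22.8) and PTPN6 (18.7). For NF-kB signalling it was 4 of 31 (12.9%, 3.63 to 29.8), with TRAF3 (50.7), BIRC3 (27.2), NFKBIA (17.3) and TNFRSF13C (16.0). Both of these intervals include 5.50%. Their densities, 22.9 (6.23 to 58.5) and 40.2 (13.0 to 93.8) regions per Mb, have intervals that include 16.5. Of the scores named for these lists, those of CD72, LYN and TRAF3 were above the median of all regions, 31.6. Those of CD22, BLK and BIRC3 lay between it and the exonic median of 25.7, and the others were below both. A promoter region was present at 80.0%, 91.7% and 87.1% of the genes of these lists, against 57.2% of all genes.

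In the germinal centre and plasma cell list IRF4, the factor that drives plasma cell fate, held 3 regions and no other of the 16 genes held any. Its strongest had a score of 28.6 in the 3′ UTR, 16992 bp from a protein-coding TSS, with a MEF2 match. CD74 was likewise alone among 16 genes of MHC class II presentation. Chromatin modifiers held regions in 7 of 30 genes (23.3%, 9.93 to 42.3), led by DNMT3A (37.8), KDM2B (36.2), EHMT1 (33.1) and KDM5C (24.3). Their exons held 31.9 regions per Mb (14.6 to 60.6), an interval that includes the 16.5 of all genes. Among housekeeping genes 3 of 24 did, namely ACTB (121.7), EEF1A1 (33.1) and HSP90AB1 (16.0), and among cell cycle genes 2 of 24, namely CCND3 (47.4) and MKI67 (21.4).

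Lists of other lineages had shares from 0% for myeloid cells to 12.5% for neurons, with wide intervals that include the 5.50% of all genes. The count was 1 of 24 for T cells, 0 of 23 for myeloid cells (upper limit 14.8%), 1 of 20 for erythroid cells (ANK1, 18.7), 2 of 24 for hepatocytes (APOA1, 161.7, and AHSG, 17.3) and 3 of 24 for neurons (SYP, 513, MAP2, 27.2, and GRIN2B, 24.3). Their exons held 30.4 regions per Mb for T cells, 20.9 for erythroid cells, 20.7 for neurons and 20.0 for hepatocytes, with intervals that include the 16.5 of all genes. Zinc finger genes named ZNF held a region in 18 of 515 (3.50%, 2.08 to 5.47), led by ZNF608 (98.8), ZNF445 (73.1), ZNF219 (39.4) and ZNF75D (39.4). Their exons held 7.67 regions per Mb (4.62 to 12.0), although 74.2% of these genes had a promoter region. Olfactory receptors held one in 8 of 414 (1.93%, 0.838 to 3.77), led by OR2T1 (67.8), OR2M4 (59.2), OR52K1 (57.4) and OR5H1 (45.8), at 14.7 regions per Mb (6.73 to 27.9). Clustered protocadherins reached 22 of 53 from only 4 regions, because their last exon is shared. HOX genes held one in 1 of 39 (HOXC12, 18.7) and collagens in 3 of 44, namely COL5A2 (195.0), COL4A2 (50.7) and COL27A1 (16.0).

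**Figure D4:**
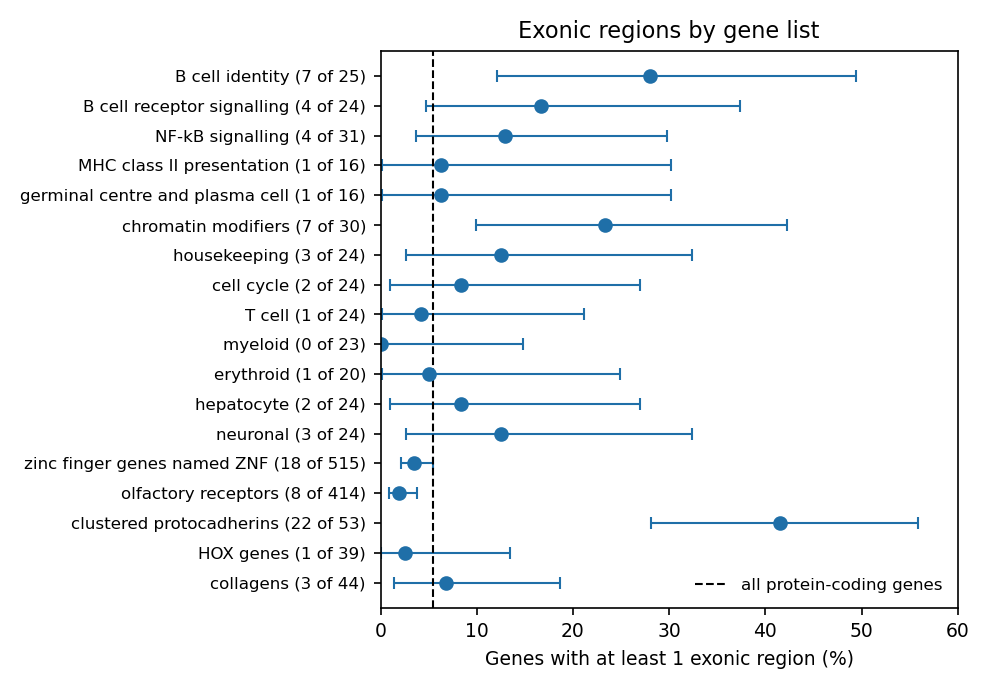
Share of genes in each list with at least 1 exonic region, with exact 95% binomial intervals; the dashed line marks 5.50% of all protein-coding genes. B cell identity (28.0%) and chromatin modifiers (23.3%) lie above the line with intervals that exclude it, as do the protocadherins through shared exons, and olfactory receptors (1.93%) lie below. The shares take no account of exon length. Per Mb of exon, the interval of chromatin modifiers (14.6 to 60.6) includes the 16.5 of all genes.

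Of 20 motifs searched on both strands of each window, 6 differed in frequency between exonic and intronic regions by the limits set for the ratio, 1.5 and above or 0.67 and below. The motif of CTCF, the factor that bounds chromatin loops, was in 40 exonic regions (3.23%, 2.32 to 4.37), against 1.99% of intronic regions (1.78 to 2.23), 3.61% of intergenic regions (3.34 to 3.90) and 2.30% of all regions. The exonic and intergenic intervals overlap. Its share was 3.62% in 3′ UTRs and 2.88% in coding sequence. The strongest regions with a site in the exon lay at DMRT1, a factor of testis development (score 280, coding exon 3), at CHPF, an enzyme of chondroitin synthesis (123.7, coding exon 2), and in the last exon of the gamma protocadherins (123.7, 3′ UTR). With intronic regions weighted to the exonic GC content, their share was 2.46%, inside the exonic interval. The ratio was then 1.31, against 1.62 without weighting.

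The SP/KLF, ETS and NRF1 motifs had higher shares in exons than in introns, with ratios that came down after GC weighting. The SP/KLF motif GGGGCGGG was in 7.51% of exonic regions (6.11 to 9.12), against 3.38% of intronic regions (3.10 to 3.68) and 14.5% of all regions, a ratio of 2.22 that became 0.915 after GC weighting. The ETS motif CCGGAAGT was in 13 exonic regions (1.05%, 0.560 to 1.79), against 0.693% of intronic (0.568 to 0.838) and 2.76% of all regions, with overlapping intervals, and its ratio of 1.52 became 1.08. Its strongest sites were at ST3GAL2, 1 bp from the centre, at FNBP1 (score 407), and at MAGI2 (106.3), a scaffold protein gene. The NRF1 motif GCGCATGCG was in 10 exonic regions (0.808%, 0.388 to 1.48), against 0.137% of intronic regions (0.0850 to 0.210) and 1.21% of all regions. Its ratio to introns of 5.88 became 2.29. In intergenic regions its share was 0.427% (0.335 to 0.536), an interval that overlaps the exonic one. The NRF1 sites printed above lay 12 bp from the centre at PELO and farther out at SEC14L2 (182.4) and LGI4 (69.6), which encode a tocopherol-binding protein and a secreted protein of peripheral nerve.

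MEF2 and YY1 matches had the lower shares in exons, with intervals apart from those of introns for MEF2 only. The MEF2 motif was in 4 exonic regions (0.323%, 0.0881 to 0.825), against 1.03% of intronic (0.879 to 1.21) and 0.754% of all regions. Its ratio to introns was 0.313, or 0.360 after GC weighting. In intergenic regions its share was 0.772% (0.646 to 0.915), an interval that overlaps the exonic one. The exonic MEF2 matches included IRF4, GPD1 (24.3) and SNX14 (20.0), all in 3′ UTRs. The YY1 motif AANATGGCG was in 8 exonic regions (0.646%, 0.279 to 1.27), against 1.13% of intronic (0.970 to 1.31) and 2.69% of all regions. The exonic and intronic intervals overlap, and the ratio was 0.571, or 0.650 after GC weighting. The YY1 match lay 10 bp from the centre at SEC14L2, whose region also held NRF1, 16 bp from it at the cartilage factor gene SOX9 (39.4), and farther out at PCF11 (44.2), a gene of mRNA 3′ end formation. The ETS motif shares its last 6 letters with that of PU.1/SPIB, and no site can match both.

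**Figure D5:**
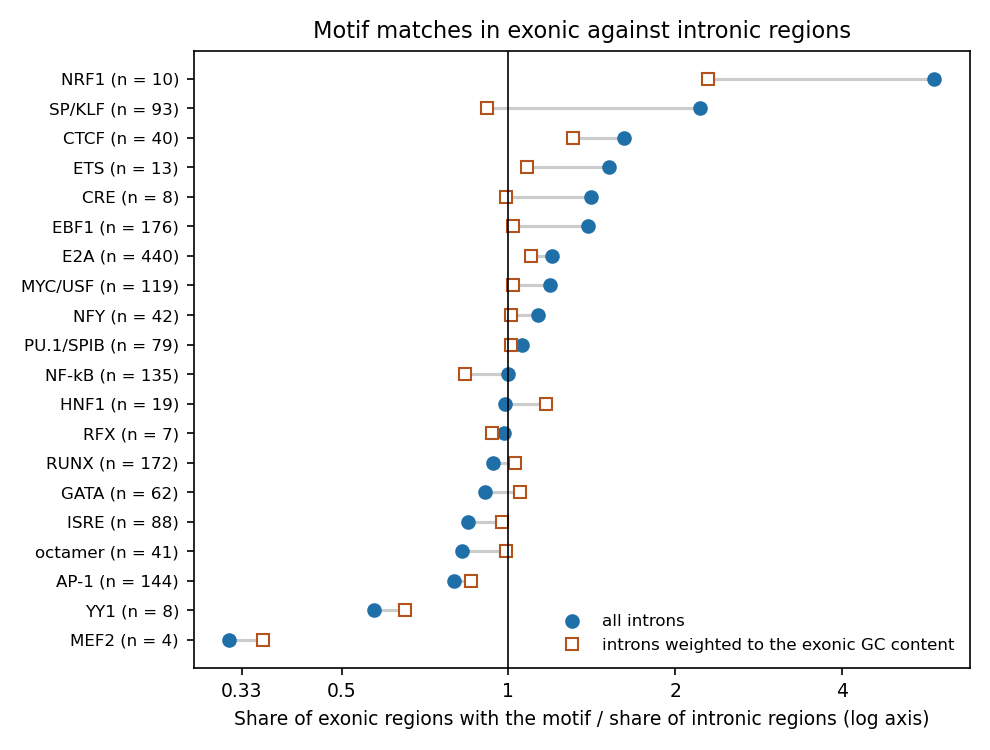
Share of exonic regions with each motif divided by the share of intronic regions (log axis), for all introns (blue points) and for introns weighted to the exonic GC content (open squares); n is the number of exonic regions with a match. NRF1 (5.88, weighted 2.29), CTCF (1.62, weighted 1.31) and ETS (1.52, weighted 1.08) stay above 1. For CTCF the weighted intronic share (2.46%) lies inside the exonic interval (2.32 to 4.37). SP/KLF goes below 1 (2.22, weighted 0.915), and MEF2 and YY1 stay below, YY1 with overlapping exonic and intronic intervals.

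Motifs of B cell factors had ratios on both sides of 1 after GC weighting. EBF1 matches were in 14.2% of exonic regions (12.3 to 16.3), against 10.3% of intronic ones, with a ratio of 1.39 that became 1.02. For PU.1/SPIB the shares were 6.38% in exons and 6.04% in introns (weighted ratio 1.01), for RUNX 13.9% in exons and 14.8% in introns (1.03), and for NF-kB 10.9% in both (0.836). E2A matches were in 35.5% of exonic (32.9 to 38.3) and 29.5% of intronic regions (28.8 to 30.2), with a weighted ratio of 1.10. For the octamer motif the shares were 3.31% in exons and 4.01% in introns (0.990). AP-1 matches were in 11.6% of exonic (9.90 to 13.5) and 14.6% of intronic regions (14.0 to 15.2), with a weighted ratio of 0.857. These factors fall outside the naming rule for motifs and were named after their values were seen.

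Exonic regions had neighbours about as near as intronic ones. The nearest other region was a median of 4524.5 bp away, against 4874.0 bp for intronic, 8375.0 bp for intergenic and 1149.0 bp for promoter regions. The authors' caller had placed 14.4% of exonic regions among several summits of a single called stretch, against 14.6% of intronic regions. Of these exonic regions, 72 (40.4%) had the highest score of their stretch, and the strongest partner summit was a promoter region for 41 (23.0%).

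The limit of 1000 bp fell in a continuum of positions. Just outside it were the regions at TMEM158 (1002 bp, score 16.0), ACSF2 (1003 bp, 18.7) and DOCK4 (1003 bp, 16.0), and just inside were those at INS (997 bp, 22.8), POU2F3 (996 bp, 28.6) and ZBTB32 (995 bp, 20.0).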

How the data were processed

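The authors mapped trimmed reads to hg19 (Bowtie2 2.1.0, with Picard 1.79 also named in their notes), filtered duplicate, mitochondrial and low-quality ones, and ran MACS2 on aggregated cells, keeping the summits with the least q-values. Whether libraries that failed the later single-cell filter were among them is not stated outright. Scores are the deposited −log10 q-values and are tied (784 distinct values).

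Centres were placed on GENCODE 44 mapped to GRCh37, with 20090 protein-coding genes. Class priority was coding, 5′ UTR, 3′ UTR, non-coding transcript. Exon place came from the canonical transcript or the next best. Shares have exact binomial and densities exact Poisson intervals (95%). Densities divide by bases free of N. Weighting used 5-point GC bins. Joint bins with under 20 intronic regions (16.0% of exonic bases) took the product of the single densities. Consensus motifs were matched exactly. CTCF, NF-kB, ISRE and MEF2 allow several letters at some positions.

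Members and lists were chosen with earlier results of these data known. Named were the strongest members overall (10), by class and by place (4 each), the 6 genes with most members, up to 4 genes per list, 3 members on either side of the limit, and 3 sites per differing motif. CD24 was listed but not matched. A few items covered by this rule are not reported here. Alternatives changed the TSS distance (500 or 2500 bp), TSS set, exon set, class order, transcript, 50% overlap, scores, summits and motif window. Scripts (Python 3.11, pandas 2.3.3, scipy 1.17.1) were tested on simulated data.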

Additional observations from a re-analysis of the deposited data

How the results depend on the processing

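Of 70 values under alternative settings, 41 stayed within the 95% interval of the value reported. The exonic share of the list (2.48%) was 3.22% with a TSS distance of 500 bp, 1.68% with 2500 bp, 2.26% with the TSSs of all genes, 2.07% with protein-coding transcripts only, 2.08% with 50% of the window exonic and 1.93% among regions at or above the median score. The coding share (39.3%) was 46.2% with protein-coding transcripts only, 29.4% with 50% overlap and 32.1% with 3′ UTRs given priority. The 3′ UTR share (44.7%) was 37.3% at 500 bp, 49.9% at 2500 bp, 50.7% with protein-coding transcripts only, 53.0% with 50% overlap and 51.2% with 3′ UTR priority. The 5′ UTR share (2.58%) was 5.65% at 500 bp and 1.73% with 50% overlap. The last-exon share (59.7%) was 51.7% at 500 bp, 64.5% at 2500 bp and 70.6% with 50% overlap. The share near a TSS of another gene type (8.72%) was 11.2% at 500 bp, 6.89% at 2500 bp and 11.7% among regions at or above the median score. The CTCF share (3.23%) was 1.94% in the central part of the window, and the median score (25.7) was 57.4 among regions at or above the median of the list, both by construction. The density ratio of exons to introns (1.23) was 1.31 at 500 bp, 1.14 at 2500 bp and 1.05 with introns weighted to distance, and it reversed to 0.901 with introns weighted to GC content and 0.844 with both. Depth is unknown, there are no replicates, 5′ UTR and motif counts under 20 are imprecise, and reads of near-identical exons may have been lost in mapping.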

Other observations

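The density of exonic regions differed between chromosomes, and the chromosomes named here were chosen after their values were seen. Chromosome 5 had the highest density, with 32.5 exonic regions per exonic Mb (27.0 to 38.8), and its introns held 18.5 per Mb (17.4 to 19.6). Chromosome 19 had the lowest, with 32 exonic regions at 8.60 per Mb (5.88 to 12.1), and its introns held 6.25 (5.27 to 7.36). On chromosome 17 the values were 9.09 in exons (6.18 to 12.9) and 6.13 in introns (5.33 to 7.01). Copy number of the line was not tested.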
